A study of Mus musculus with 12 samples.

Results

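Potassium channel genes were taken as the rows of the deposited count table whose symbol begins with Kcn, followed by a family letter code and a number, leaving out symbols that end in os, which name opposite-strand RNAs. The rule found 93 of 29564 genes, and measured values played no part in it. Of the 93, 9 were at 0 in all 12 libraries, 84 were above 0 in at least 1 library, 52 passed the filter on low counts and were tested, and 33 were well measured, meaning tested with a mean of at least 1 CPM (counts for each 1 M counts of the library after TMM scaling, the trimmed mean of M values). The 93 genes were sorted into 15 lists by the current or subunit family they belong to.

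Polyadenylated RNA was sequenced from the left ventricle of 12 wild-type C57BL6 mice, 1 library per mouse and 4 mice per group. Control-Veh mice were non-failing and received vehicle. HFpEF-Veh mice also received vehicle, after a high-fat diet together with L-NAME, which blocks nitric oxide synthesis, a combination used to model heart failure in which the ejection fraction is preserved (HFpEF). HFpEF-TYA-018 mice had been through the same regimen and received 15 mg/kg of the HDAC6 inhibitor TYA-018 by mouth. By the title of the series this was one dose, and the study describes sequencing of hearts taken hours after one dose, whereas the labels' treatment text names daily dosing over weeks. The sample labels give neither sex nor age. Below, C1 to C4 stand for the Control-Veh libraries, V1 to V4 for those of HFpEF-Veh and T1 to T4 for those of HFpEF-TYA-018.

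Potassium channels let potassium leave the heart muscle cell and so end its action potential and hold its resting potential. In the mouse ventricle the early repolarizing phase is carried by the fast transient outward current Ito (Kv4 pores with the subunit KChIP2) and by the slow delayed currents IKslow (Kv1.5 among its pores), while IKr and IKs, which end the action potential in large mammals, are small in adult mice. IK1 (Kir2 channels) sets the resting potential, IKACh (Kir3 channels) answers acetylcholine and is known mainly from the atria and pacemaker cells, IKATP (Kir6 channels) couples the membrane to cell energy, and two-pore channels carry a background leak. Loss of Ito with KChIP2 is a widely described feature of hypertrophied and failing hearts.

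The libraries held 61.2 to 83.9 M estimated counts, and 35.4% to 47.7% of them fell on genes of the mitochondrial genome, with a higher share in HFpEF-Veh (43.1% to 47.7%) than in Control-Veh (37.0% to 40.6%) or HFpEF-TYA-018 (35.4% to 41.2%). The effective lengths in the deposited table were also longer in HFpEF-Veh, where the median gene stood 0.04 to 0.11 above the average of the 12 libraries on the log2 scale, against -0.06 to 0.01 in Control-Veh and -0.16 to 0.01 in HFpEF-TYA-018. The summed CPM of 8 ventricular cardiomyocyte markers was 28127 to 38678 over C1 to C4, 25562 to 27309 over V1 to V4 and 28808 to 31777 over T1 to T4, and 6 of the 8 were lower and 1 was higher in HFpEF-Veh relative to Control-Veh. The sums for endothelial, pericyte, macrophage, conduction system and red cell markers were higher in every HFpEF-Veh library than in any library of the other groups. The defining markers of the labelled tissue were present, since all 8 ventricular markers were tested, whereas the fat markers Plin1, Cfd and Lep were under 0.1 CPM on average. In RNA from whole tissue, fewer cells of a type and less RNA per cell cannot be told apart, and the part that these shifts have in the results below was not tested beyond the alternative scalings given with them.

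Some members were lower and others higher in HFpEF-Veh relative to both other groups, and the promoters of 3 of them are shown first, because genes that move together or apart may be compared by the sequence before their start. The sequences are the 250 bases before the RefSeq transcription start (GRCm38.p6, written 5′ to 3′ on the strand of the gene). The Kcnip2 window is chr19:45816064-45816313 on the minus strand, the Kcnj2 window chr11:111065914-111066163 on the plus strand and the Kcna5 window chr6:126535556-126535805 on the minus strand. Kcnip2 and Kcnj2 were lower in HFpEF-Veh relative to both other groups and Kcna5 was higher. Capitals mark matches on either strand to any of 5 short motifs. These were the E-box core, spelled CACGTG. The next was the GC box, spelled GGGCGG. A further motif was the CACCC box, spelled CCACCC. The TATA box was searched as TATAAA. The nuclear receptor half-site was searched as AGGTCA.
Kcnip2: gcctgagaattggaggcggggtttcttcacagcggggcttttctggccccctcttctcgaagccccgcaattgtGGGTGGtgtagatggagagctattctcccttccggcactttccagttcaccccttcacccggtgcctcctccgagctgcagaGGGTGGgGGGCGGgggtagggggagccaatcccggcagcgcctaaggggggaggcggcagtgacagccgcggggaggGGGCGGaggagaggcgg
Kcnj2: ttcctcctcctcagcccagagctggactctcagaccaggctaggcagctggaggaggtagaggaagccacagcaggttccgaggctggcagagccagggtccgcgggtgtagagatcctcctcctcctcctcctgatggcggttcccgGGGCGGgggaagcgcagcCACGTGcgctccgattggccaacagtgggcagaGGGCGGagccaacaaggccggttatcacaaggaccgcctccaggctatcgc
Kcna5: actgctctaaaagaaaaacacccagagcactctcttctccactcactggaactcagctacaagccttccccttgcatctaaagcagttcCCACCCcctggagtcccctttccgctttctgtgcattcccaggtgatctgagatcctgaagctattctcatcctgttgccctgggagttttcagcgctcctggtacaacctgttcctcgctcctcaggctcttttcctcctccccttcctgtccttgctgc
The Kcnip2 window held 4 matches in 250 bases of which 66.8% were G or C, the Kcnj2 window 3 matches at 65.6% and the Kcna5 window 1 match at 53.2%. The RefSeq promoter table gave windows that could be used for 9 of the 12 members called in any comparison, and not for Kcng2, Kcnk6 or Kcnv2. The GC box was matched in 5 of the 9 genes, against 32.7% of the 32817 windows of all genes, and the CACCC box in 5 of 9, against 28.1%. The E-box core was matched in 2 of 9 (Kcnj2 and Kcne4) against 6.02% of all windows. The TATA box and the nuclear receptor half-site were matched in 0 of 9, against 12.4% and 14% of all windows. A gene counted as matched if any of its windows held the motif, and Kcnip3 had several windows, whereas the background shares count single windows. A match is only a run of letters, and these counts were not tested.

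The most abundant members were compared per length, in TPM as deposited, which divides each count by the effective length of the gene before setting it against the whole library. Kcnip2 had the highest mean over the 12 libraries, 11.4 TPM, followed by Kcng2 (11.3 TPM), Kcnh2 (8.53 TPM), Kcnk3 (7.25 TPM) and Kcna5 (4.87 TPM). The ranges of these genes, Kcna5 among them, overlapped, so their order is not firm. The lowest library of Kcna5 (3.95 TPM) was still above the highest of Kcnj3 (2.93 TPM), the next gene. Kcnj3 (1.77 TPM), Kcnq1 (1.68 TPM), Kcnn2 (1.55 TPM) and Kcnj5 (1.34 TPM) made up a second tier whose ranges also overlapped, and every other member was below 1 TPM on average. The pore genes of the fast transient current were among these low members, with Kcnd3 at 0.477 TPM and Kcnd2 at 0.294 TPM, far below their partner Kcnip2. T1 had the highest TPM of the 12 libraries for 18 of the 20 most abundant members (20.6 TPM for Kcnip2, 14.3 TPM for Kcnh2), and the highest CPM for 1 of the 20.

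**Figure D1:**
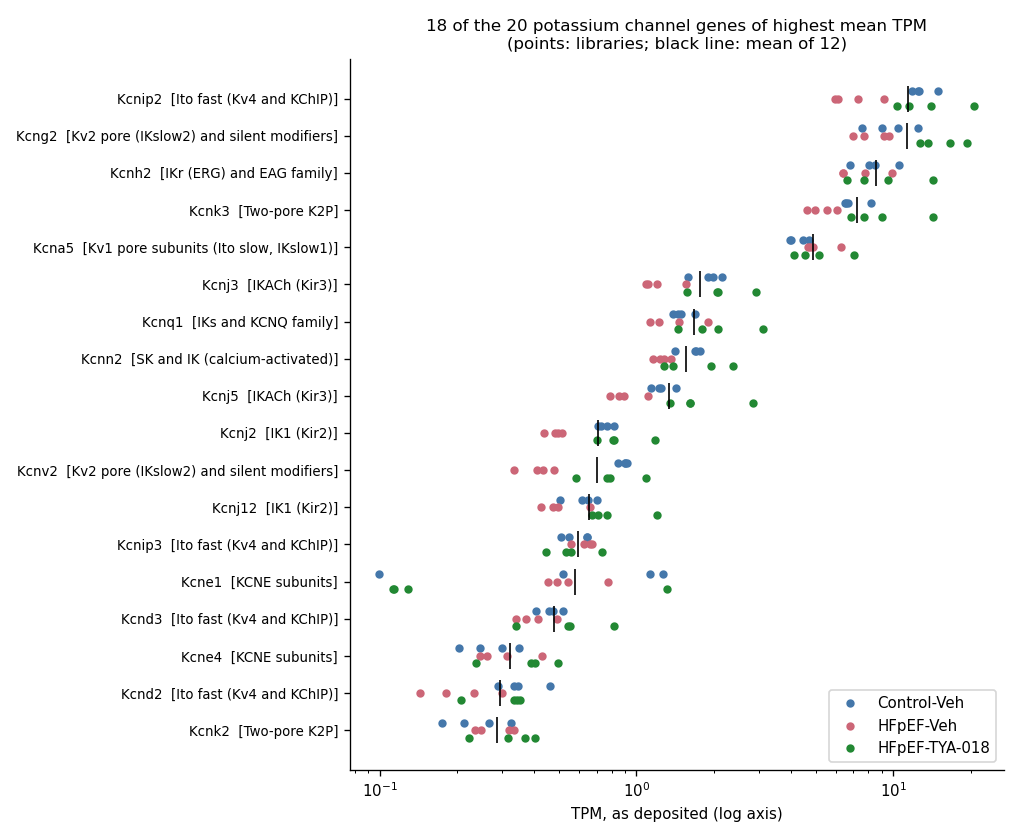
TPM of 18 of the 20 potassium channel genes with the highest mean, on a log axis. Each point is 1 library, coloured by group, and the black line is the mean of 12. Kcnip2, Kcng2, Kcnh2, Kcnk3 and Kcna5 stand above all others drawn, and several members have 1 high library in HFpEF-TYA-018.

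Between HFpEF-Veh and Control-Veh, the question was what the disease model did to the channel genes. Of the 52 tested members, 4 were higher (Kcna5, Kcnk6, Kcnc4 and Kcne4) and 6 were lower (Kcnip2, Kcnv2, Kcng2, Kcnj2, Kcnj3 and Kcnj5) at an adjusted p under 0.05 by edgeR's quasi-likelihood test, adjusted over 14333 genes. That is 19.2% of the tested members, against a background of 21.2% of all genes tested (10.9% higher and 10.3% lower), so the family as a whole was called no more often than other genes. Among the 33 well-measured members 27.3% were called, against 23.6% of all tested genes with a mean of at least 1 CPM. The median log2 fold change was -0.06 over the tested members and -0.01 over all genes, and the median size of the change, regardless of sign, was 0.28 and 0.22.

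Between HFpEF-TYA-018 and HFpEF-Veh, which asks what the HDAC6 inhibitor did within the model, 6 members were higher (Kcnip2, Kcnv2, Kcng2, Kcnj2, Kcnj3 and Kcnj5) and 5 were lower (Kcna5, Kcnk6, Kcnc4, Kcnip3 and Kcnt2). This was 21.2% of the tested members against 19.3% of all genes (8.93% higher and 10.4% lower), and 30.3% of the well-measured ones against 22.5% of genes at 1 CPM or above. The median log2 fold change was -0.02 over the tested members, against 0.00 over all genes. Between HFpEF-TYA-018 and Control-Veh, 0 members were higher and 3 were lower (Kcnt2, Kcnv2 and Kcnip3), which is 5.77% against 5.86% of all genes (3.12% higher and 2.74% lower) and 9.09% against 6.88% of genes at 1 CPM or above. DESeq2 also called 0 members higher and these 3 lower, and 9 members had an unadjusted p under 0.05 by edgeR in either direction.

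All 6 members called lower in HFpEF-Veh relative to Control-Veh were called higher in HFpEF-TYA-018 than in HFpEF-Veh, and 3 of the 4 called higher (Kcna5, Kcnk6 and Kcnc4) were called lower, so that 9 members were called in both. None of these 9 was called in the same direction in both. The share of all genes called in both was not taken, so this count cannot be set against other genes. The first 2 comparisons share the 4 HFpEF-Veh libraries, so chance deviations of those libraries enter both with opposite signs, and the return of a gene in the second comparison is not separate evidence of its change in the first. The values below are therefore given for all 3 groups side by side.

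**Figure D2:**
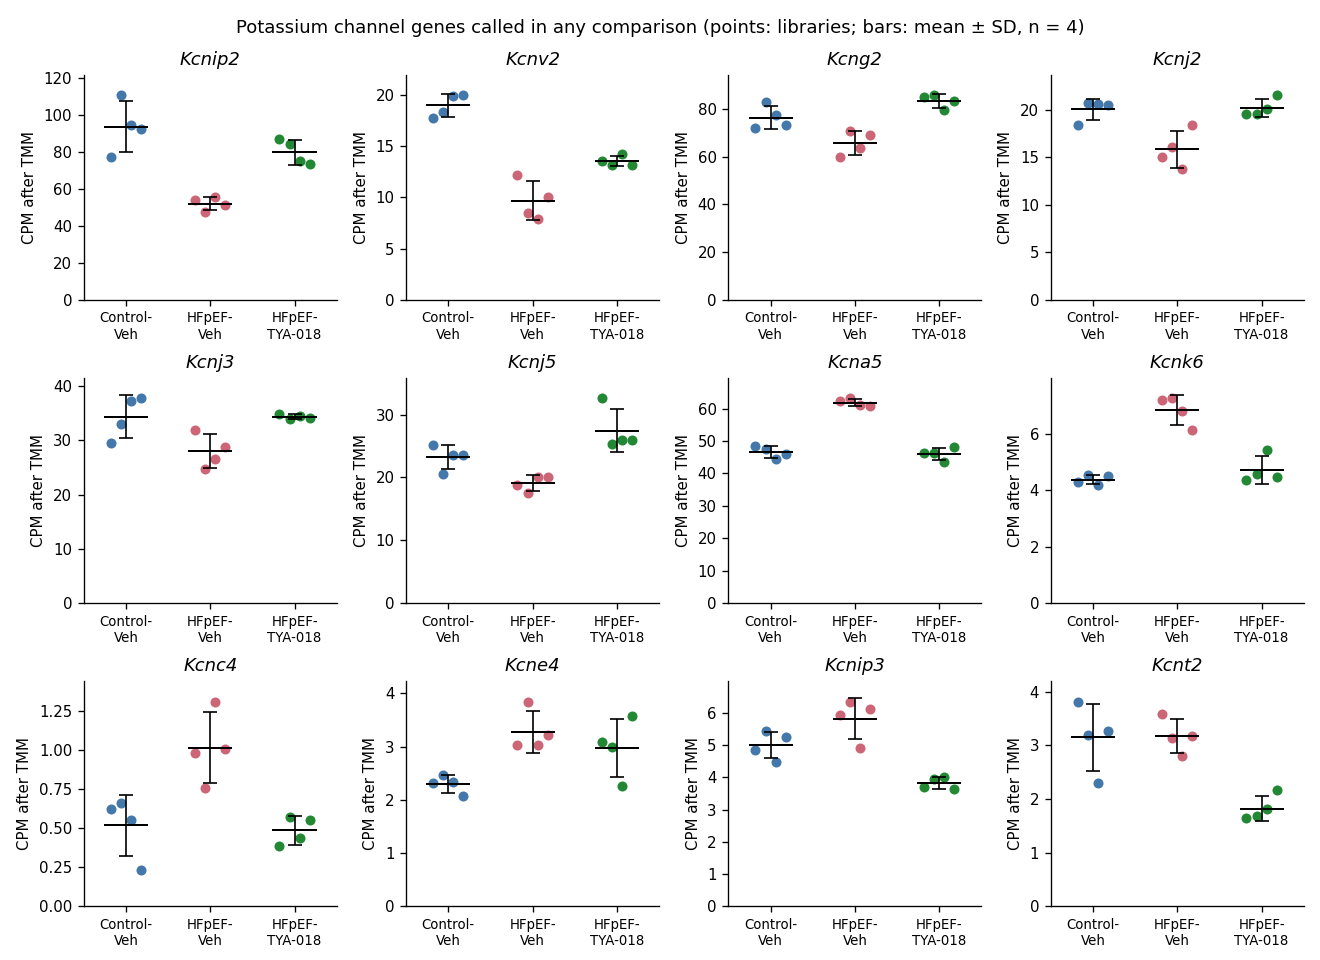
TMM-scaled CPM of the 12 members called in any comparison. Each point is 1 library and bars are mean ± SD (n = 4 per group), with every axis starting at 0. Kcnip2, Kcnv2, Kcng2, Kcnj2, Kcnj3 and Kcnj5 dip in HFpEF-Veh, Kcna5, Kcnk6 and Kcnc4 peak there, and Kcnip3 and Kcnt2 are lowest in HFpEF-TYA-018.

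The fast transient outward current list (Kv4 pores and KChIP subunits) had 7 members, of which 6 were tested. Kcnip2 (chr19:45791839-45816061) encodes KChIP2, the calcium-binding subunit that brings Kv4 channels to the membrane. Its CPM was 77.2, 111, 94.5 and 92.8 in C1 to C4, 54.1, 47.3, 55.5 and 51.5 in V1 to V4, and 87.1, 84.4, 75.0 and 73.4 in T1 to T4. Every HFpEF-Veh library lay below every library of the other groups, while Control-Veh and HFpEF-TYA-018 overlapped. Kcnip2 fell to 0.555 times its Control-Veh level in HFpEF-Veh (log2 fold change -0.85 ± 0.10, SE, adjusted p = 0.000521). In HFpEF-TYA-018 it was 1.54 times the HFpEF-Veh level (log2 fold change 0.62 ± 0.10, adjusted p = 0.00268). The remaining difference between HFpEF-TYA-018 and Control-Veh was -0.23 (95% interval -0.45 to -0.01) and did not pass after adjustment (adjusted p = 0.203). In the first 2 comparisons Kcnip2 kept its direction under every alternative scaling, and its calls held in each fit without 1 library. The first call was lost by limma on log2(TPM + 1) (-0.80, adjusted p = 0.0724) and on log2(TPM + 0.1) (-0.88, adjusted p = 0.0506), with differences about as large.

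The pore genes of the same current were not called in any comparison. Kcnd3, the Kv4.3 pore, ranged from 10.8 to 15.3 CPM over C1 to C4, 12.8 to 15.4 over V1 to V4 and 11.4 to 14.5 over T1 to T4, and these ranges overlapped throughout. Its log2 fold change between HFpEF-Veh and Control-Veh was 0.09 (95% interval -0.15 to 0.33, adjusted p = 0.61), an interval that leaves out a drop of the size seen for Kcnip2. Kcnd2, the Kv4.2 pore, was named after its values were seen. Its mean was 5.47 ± 0.956 CPM over C1 to C4, 3.93 ± 0.893 over V1 to V4 and 3.86 ± 0.843 over T1 to T4 (SD, n = 4), with log2 fold changes of -0.48 (adjusted p = 0.101) and -0.03 (adjusted p = 0.942) in the first 2 comparisons. The 95% interval of the first, -0.90 to -0.05, includes a drop of the size seen for Kcnip2. Kcnd1, the Kv4.1 pore, also named after its values were seen, averaged 0.676 CPM over the 12 libraries. Its log2 fold changes were -0.63 (adjusted p = 0.079) and 0.21 (adjusted p = 0.585). All HFpEF-Veh libraries of Kcnd1 were below all Control-Veh libraries. An RNA on the opposite strand, Kcnd3os, overlaps exons of Kcnd3, and although the library kit keeps strand, the strand setting used for counting is not given in the sources used here.

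Kcnip3, which encodes the KChIP3 protein also known as the calcium sensor DREAM, moved differently from Kcnip2. Its CPM was 4.86, 5.43, 4.49 and 5.25 in C1 to C4, 5.93, 6.36, 4.91 and 6.13 in V1 to V4, and 3.72, 3.94, 4.01 and 3.65 in T1 to T4. The 4 HFpEF-TYA-018 libraries were below all 8 others, and Control-Veh and HFpEF-Veh overlapped. Kcnip3 was lower in HFpEF-TYA-018 than in HFpEF-Veh by -0.61 ± 0.10 on the log2 scale (adjusted p = 0.00286) and lower than in Control-Veh by -0.39 ± 0.10 (adjusted p = 0.0454). Limma on TPM lost the call against HFpEF-Veh in all 3 forms (-0.06, -0.14 and -0.25, adjusted p 0.117 to 0.512). The call against Control-Veh was lost in 7 of 8 fits that left out 1 library, with adjusted p between 0.0568 and 0.111, and held without C3. It was also lost without the low-count filter, with only the 2 groups fitted, with effective lengths as an offset and on TPM (adjusted p 0.0661 to 0.9). The change between HFpEF-Veh and Control-Veh was 0.22 (adjusted p = 0.141).

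Among the delayed rectifier genes, Kcna5 (chr6:126532551-126535412) encodes Kv1.5, the pore of the 4-aminopyridine-sensitive part of IKslow in the mouse and of the ultrarapid atrial current in humans. Its CPM was 48.4, 47.6, 44.3 and 46.1 in C1 to C4, 62.3, 63.1, 61.1 and 60.7 in V1 to V4, and 46.3, 46.2, 43.6 and 48.1 in T1 to T4. HFpEF-Veh stood clear of both other groups with a spread of only 1.11 CPM (SD), and the other groups lay on top of each other. Kcna5 was higher in HFpEF-Veh relative to Control-Veh by 0.41 ± 0.05 on the log2 scale (1.33-fold, adjusted p = 0.000482) and lower in HFpEF-TYA-018 than in HFpEF-Veh by -0.42 ± 0.05 (0.745-fold, adjusted p = 0.000637). Between HFpEF-TYA-018 and Control-Veh the difference was -0.02 (95% interval -0.12 to 0.09). On the TPM scale limma called neither change. The first was 0.21 in log2(TPM + 1), 0.25 in log2(TPM + 0.1) and 0.40 in log2(TPM + 1) rescaled without mitochondrial genes (adjusted p 0.119 to 0.432). The second was 0.004, 0.002 and -0.23 in the same order, where the median over all genes stood at 0.17, 0.34 and 0.09. Kcna5 shared 4.31% of its 31-base words with 1 other gene, Kcna6.

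Of the other 7 Kv1 genes in this list, 5 were tested and 0 were called in any comparison by edgeR or by DESeq2, with 1 of them (Kcna4, in the first comparison) at an unadjusted p under 0.05. Kcna4, the Kv1.4 pore of the slow transient current, was at a mean of 0.350 CPM over the 12 libraries. The 3 beta subunit genes were all tested and 0 were called by either tool or had an unadjusted p under 0.05.

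The Kv2 list held 12 members, of which 3 were tested. Kcnv2 and Kcng2 encode Kv8.2 and Kv6.2, silent subunits that form no channel alone and alter Kv2 pores when they join them. Kcnv2 was at 17.8, 18.4, 19.9 and 20.0 CPM in C1 to C4, 12.2, 8.51, 7.88 and 10.0 CPM in V1 to V4, and 13.6, 13.2, 14.2 and 13.2 CPM in T1 to T4. The 3 groups did not overlap, with HFpEF-TYA-018 between the others. Kcnv2 had the largest drop in HFpEF-Veh of the 6 members called lower (-0.98 ± 0.11 on the log2 scale, 0.508-fold, adjusted p = 0.000463) and was 1.40-fold higher in HFpEF-TYA-018 than in HFpEF-Veh (0.49 ± 0.11, adjusted p = 0.0124). It stayed below Control-Veh in HFpEF-TYA-018 (-0.49 ± 0.11, adjusted p = 0.0288), a call that 6 of 8 fits without 1 library lost, with adjusted p between 0.0543 and 0.0812. The call against HFpEF-Veh was lost when scaled by cardiomyocyte markers (0.29, adjusted p = 0.166).

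Kcng2 was the second most abundant member per length. It was at 71.9, 82.7, 77.4 and 73.2 CPM in C1 to C4, 59.8, 70.5, 63.5 and 69.2 CPM in V1 to V4, and 85.0, 85.7, 79.4 and 83.2 CPM in T1 to T4. The HFpEF-Veh libraries were the lowest 4 of the 12, by a small margin over Control-Veh. Kcng2 was lower in HFpEF-Veh relative to Control-Veh by -0.21 ± 0.07 (adjusted p = 0.0377) and higher in HFpEF-TYA-018 than in HFpEF-Veh by 0.34 ± 0.07 (adjusted p = 0.00567). The first of these calls was lost in 5 of 8 fits without 1 library (adjusted p 0.0574 to 0.106) and shrank to -0.01 with effective lengths as an offset. The second call was lost with effective lengths as an offset (0.46, adjusted p = 0.129). It was also lost by limma on log2(TPM + 1) rescaled without mitochondrial genes (0.62, adjusted p = 0.0804) and when scaled by cardiomyocyte markers (0.14, adjusted p = 0.217). The transcript D330025C20Rik lies over Kcng2 exons on the opposite strand.

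In the Kv3 list all 4 genes were tested and 1 was called, Kcnc4, the Kv3.4 pore, known for fast inactivation. It was the least abundant of the called members per length, and stood at 0.624, 0.662, 0.552 and 0.234 CPM in C1 to C4, 0.980, 0.758, 1.31 and 1.01 CPM in V1 to V4, and 0.382, 0.570, 0.433 and 0.551 CPM in T1 to T4. The HFpEF-Veh libraries were above all others. Kcnc4 was 1.95-fold higher in HFpEF-Veh relative to Control-Veh (0.97 ± 0.32 on the log2 scale, adjusted p = 0.0499) and 0.478-fold in HFpEF-TYA-018 relative to HFpEF-Veh (-1.07 ± 0.32, adjusted p = 0.0368). Each call was lost in 7 of 8 fits without 1 library (adjusted p 0.0512 to 0.135 and 0.0509 to 0.105), so neither is firm.

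For IKr and IKs, the most abundant pores did not pass the test. Kcnh2, the ERG pore of IKr, was at 56.3 ± 7.05 CPM over C1 to C4, 51.7 ± 3.35 over V1 to V4 and 53.9 ± 3.14 over T1 to T4 (SD, n = 4), with C4 the highest library at 65.6 CPM and V1 the lowest at 47.9 CPM. Its log2 fold changes were -0.12 (95% interval -0.31 to 0.06) and 0.06 (-0.12 to 0.25) in the first 2 comparisons. Kcnq1, the pore of IKs, was at 19.2 ± 1.93, 19.5 ± 1.29 and 20.4 ± 0.679 CPM in the same order of groups, with log2 fold changes of 0.02 (-0.14 to 0.18) and 0.07 (-0.10 to 0.23). These intervals leave out changes as large as that of Kcnip2. The antisense RNA Kcnq1ot1 overlaps Kcnq1 on the opposite strand and was not a row of the tables used here.

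The KCNE list of small accessory subunits had 5 members, of which 4 were tested. Kcne4, which encodes a subunit known to inhibit Kv1 and KCNQ1 channels, was at 2.31, 2.47, 2.33 and 2.07 CPM in C1 to C4, 3.03, 3.84, 3.02 and 3.21 CPM in V1 to V4, and 3.08, 2.99, 2.26 and 3.57 CPM in T1 to T4. All HFpEF-Veh libraries were above all Control-Veh libraries, and HFpEF-TYA-018 overlapped both. Kcne4 was 1.43-fold higher in HFpEF-Veh relative to Control-Veh (0.51 ± 0.15 on the log2 scale, adjusted p = 0.0273), a call lost in 4 of 8 fits without 1 library (those without C3, C4, V2 or V4, adjusted p 0.0514 to 0.0763). Against HFpEF-Veh the change in HFpEF-TYA-018 was -0.14 (95% interval -0.45 to 0.18), so Kcne4 was the one member called in the first comparison and not in the second. Kcne1, the IKs subunit, named after its values were seen, was at 1.83 ± 0.656, 1.36 ± 0.201 and 1.36 ± 0.335 CPM and was not called.

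Among the inward rectifiers, Kcnj2 of IK1 and Kcnj3 and Kcnj5 of IKACh were called lower in HFpEF-Veh, and the other Kir2 genes were not called. Kcnj2, the Kir2.1 pore and main source of IK1, was at 18.4, 20.8, 20.6 and 20.5 CPM in C1 to C4, 15.1, 16.1, 13.8 and 18.4 CPM in V1 to V4, and 19.6, 19.6, 20.2 and 21.6 CPM in T1 to T4. V4 and C1 met at the same level, and the other HFpEF-Veh libraries lay below all others. Kcnj2 was lower in HFpEF-Veh relative to Control-Veh by -0.34 ± 0.08 (0.790-fold, adjusted p = 0.0137) and higher in HFpEF-TYA-018 than in HFpEF-Veh by 0.35 ± 0.08 (1.28-fold, adjusted p = 0.0134), and no fit without 1 library lost either call. Scaled by cardiomyocyte markers, the first change was 0.02 and the second 0.16 (adjusted p = 0.281), and limma on TPM lost the first call in all 3 forms (adjusted p 0.0729 to 0.117). Kcnj12, the Kir2.2 pore, named after its values were seen, was at 6.83 ± 1.03, 7.60 ± 1.57 and 7.48 ± 0.938 CPM in the 3 groups and was not called. The 4 Kir2 genes were all tested. In the first comparison the log2 fold changes of Kcnj12, Kcnj14 and Kcnj4 were 0.15, 0.45 and 0.31. Their intervals were -0.19 to 0.50, -0.09 to 1.00 and -0.52 to 1.13. Each held both signs, so a change opposite to that of Kcnj2 is not shown. The intervals of Kcnj12 and Kcnj14 leave out a drop as large as that of Kcnj2, and that of Kcnj4 does not. Kcnj4 averaged only 0.309 CPM over all libraries, and Kcnj14 shared 35.6% of its 31-base words with another gene, Gm5522.

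Kcnj3 and Kcnj5 encode Kir3.1 and Kir3.4, the pair that forms the acetylcholine-activated channel. Kcnj3 was at 29.4, 33.0, 37.2 and 37.7 CPM in C1 to C4, 31.9, 24.7, 26.6 and 28.8 CPM in V1 to V4, and 34.9, 34.0, 34.5 and 34.0 CPM in T1 to T4. V1 was above C1, and the other HFpEF-Veh libraries were the lowest of the 12. Kcnj3 was lower in HFpEF-Veh relative to Control-Veh by -0.30 ± 0.09 (adjusted p = 0.0339) and higher in HFpEF-TYA-018 than in HFpEF-Veh by 0.30 ± 0.09 (adjusted p = 0.0366). These calls were lost in 6 and 7 of 8 fits without 1 library, with adjusted p between 0.0528 and 0.1 and between 0.0553 and 0.0912. The transcript Gm26794 overlaps exons of Kcnj3 on the opposite strand.

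Kcnj5 was at 25.2, 20.6, 23.6 and 23.5 CPM in C1 to C4, 18.8, 17.4, 20.1 and 20.1 CPM in V1 to V4, and 32.6, 25.3, 26.0 and 25.9 CPM in T1 to T4. The 3 groups did not overlap, and HFpEF-TYA-018 was the highest, with T1 apart from the other 3. Kcnj5 was lower in HFpEF-Veh relative to Control-Veh by -0.28 ± 0.09 (adjusted p = 0.0459), a call that held in only 1 of 8 fits without 1 library, and 1.44-fold higher in HFpEF-TYA-018 than in HFpEF-Veh (0.52 ± 0.09, adjusted p = 0.00344), a call that held in all 8. The latter call was lost by limma on log2(TPM + 1) rescaled without mitochondrial genes (0.56, adjusted p = 0.0545) and when scaled by cardiomyocyte markers (0.32, adjusted p = 0.131). Between HFpEF-TYA-018 and Control-Veh the difference was 0.24 (95% interval 0.04 to 0.44, adjusted p = 0.14). Because Kir3 genes are known from atrial muscle, the atrial markers are given beside them. The summed CPM of the 6 atrial marker genes was 129 to 245 over C1 to C4, 64.4 to 150 over V1 to V4 and 142 to 166 over T1 to T4, with 1 of 5 tested genes called lower in HFpEF-Veh relative to Control-Veh and 0 called in HFpEF-TYA-018 against HFpEF-Veh, and Sln under 0.1 CPM on average. Nppa made up most of the atrial sum, at a mean of 150 CPM over the 12 libraries. The means were 2.23 CPM for Myl4, 1.66 for Dkk3, 0.164 for Bmp10 and 0.127 for Myl7. The part of atrial tissue in the Kir3 values was not tested.

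The genes of IKATP were too unevenly counted to compare, and they were named after their values were seen. Kcnj11, the Kir6.2 pore, was at 0 in 7 of 12 libraries, between 0.0292 and 0.402 CPM in 4, and at 1.53 CPM in V4, and it did not pass the filter. Kcnj8, the Kir6.1 pore, was at 0 in 5 libraries and up to 2.15 CPM in the others, with an interval of -5.05 to 2.26 for the log2 fold change between HFpEF-Veh and Control-Veh. Their partner Abcc9, the sulfonylurea receptor SUR2, was measured far more evenly, at 128 to 173 CPM over C1 to C4, 133 to 158 over V1 to V4 and 133 to 151 over T1 to T4. An exact 0 in estimated counts can be a failed assignment of reads as well as a missing RNA, so no fold is given against a group at 0.

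The two-pore list had 14 members, of which 6 were tested and 1 was called. Kcnk3, the TASK-1 leak pore, was the most abundant of them per length, at 145, 200, 176 and 164 CPM in C1 to C4, 154, 152, 157 and 162 CPM in V1 to V4, and 196, 186, 166 and 186 CPM in T1 to T4. Its log2 fold changes were -0.13 (95% interval -0.32 to 0.06) and 0.23 (0.04 to 0.42, adjusted p = 0.0895), so it did not pass the test, although HFpEF-TYA-018 lay wholly above HFpEF-Veh. The second change was called when only the 2 groups were fitted (adjusted p = 0.0294) and by limma on log2(TPM + 1) and log2(TPM + 0.1) (0.69 and 0.78, adjusted p = 0.0343 and 0.029). Kcnk6 (chr7:29221926-29232515), the TWIK-2 pore, also known from vessels and immune cells, was at 4.29, 4.54, 4.20 and 4.50 CPM in C1 to C4, 7.20, 7.26, 6.84 and 6.13 CPM in V1 to V4, and 4.35, 4.59, 5.44 and 4.47 CPM in T1 to T4. HFpEF-Veh stood above both other groups without overlap. Kcnk6 was 1.57-fold higher in HFpEF-Veh relative to Control-Veh (0.65 ± 0.09, adjusted p = 0.0011) and 0.687-fold in HFpEF-TYA-018 relative to HFpEF-Veh (-0.54 ± 0.09, adjusted p = 0.00341), and both calls held without any 1 library. With effective lengths as an offset the second change was -0.26 (adjusted p = 0.195), in log2(TPM + 1) and log2(TPM + 0.1) it was 0.03 and 0.12, and limma on TPM lost the first call in all 3 forms (adjusted p 0.159 to 0.432).

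The other 4 tested two-pore genes were not called. Their log2 fold changes in the first 2 comparisons were 1.31 and -0.98 for Kcnk1, 0.46 and -0.44 for Kcnk2, 0.55 and -0.77 for Kcnk13 and -0.05 and 0.02 for Kcnk5. Over the 6 tested genes of the list the median log2 fold change was 0.50 in HFpEF-Veh against Control-Veh and -0.49 in HFpEF-TYA-018 against HFpEF-Veh, beside medians of -0.01 and 0.00 over all genes. Kcnk3, the most abundant of the 6 at a mean of 170 CPM, moved the other way (-0.13 and 0.23). Kcnk13 averaged only 0.425 CPM. Both medians draw on the same HFpEF-Veh libraries, so the second is not separate evidence of the first. Sums of endothelial and macrophage markers moved in the same direction as Kcnk6, and the smooth muscle sum did not (1413 to 1822 CPM over C1 to C4, 1304 to 1409 over V1 to V4 and 1561 to 1683 over T1 to T4). Des made up most of the smooth muscle sum, at a mean of 1321 CPM over the 12 libraries, with Acta2 next at 109 CPM. The sum therefore mainly shows Des and cannot tell how the other smooth muscle markers moved. In the first 2 comparisons the log2 ratios of group means were 0.293 and -0.37 for pericyte markers and 0.585 and -0.584 for fibroblast markers. They were -0.373 and 0.201 for ventricular cardiomyocyte markers. The endothelial sum was 704 to 802 CPM over C1 to C4, 853 to 1033 over V1 to V4 and 670 to 827 over T1 to T4, with 3 of 6 genes called higher in the first comparison and 3 lower in the second. The macrophage sum was 76.2 to 89.9, 117 to 151 and 81.6 to 95.4 CPM in the same order, with 5 of 5 genes called higher and 3 called lower. Their part in the two-pore values was not tested.

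In the calcium-activated and sodium-activated families, 1 member was called. Kcnt2, the sodium-activated Slick pore, was at 3.81, 3.20, 2.30 and 3.27 CPM in C1 to C4, 3.58, 3.13, 2.79 and 3.18 CPM in V1 to V4, and 1.64, 1.68, 1.80 and 2.16 CPM in T1 to T4. All HFpEF-TYA-018 libraries were below all others, and the 2 vehicle groups overlapped. Kcnt2 was lower in HFpEF-TYA-018 than in HFpEF-Veh by -0.80 ± 0.16 (0.574-fold, adjusted p = 0.00658) and lower than in Control-Veh by -0.79 ± 0.16 (0.578-fold, adjusted p = 0.0181), while HFpEF-Veh and Control-Veh differed by 0.01 (95% interval -0.34 to 0.36). With effective lengths as an offset the drop against HFpEF-Veh was -0.46 and was no longer called, and in log2(TPM + 1) the difference was 0.002. The call against Control-Veh was lost without C4, T1 or T2 (adjusted p 0.0514 to 0.0575). The transcript 4930590L20Rik overlaps exons of Kcnt2 on the opposite strand.

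Kcnn2, the SK2 pore and the most abundant of the calcium-activated genes per length, was at 6.49 ± 0.751, 6.09 ± 0.213 and 6.15 ± 0.747 CPM in the 3 groups, with log2 fold changes of -0.09 (95% interval -0.32 to 0.14) and 0.01 (-0.22 to 0.25) in the first 2 comparisons. Kcnn1, the SK1 pore, named after its values were seen, swung within groups, with 0.665, 11.3, 11.3 and 0 CPM in C1 to C4, and its interval of -2.16 to 2.38 between HFpEF-Veh and Control-Veh shows that a large change could not be detected. The long noncoding transcript A230052G05Rik lies on the opposite strand of Kcnn1 exons. Kcnma1, the BK pore, was at 0 in 8 of 12 libraries and averaged 0.0365 CPM, below the filter.

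**Figure D3:**
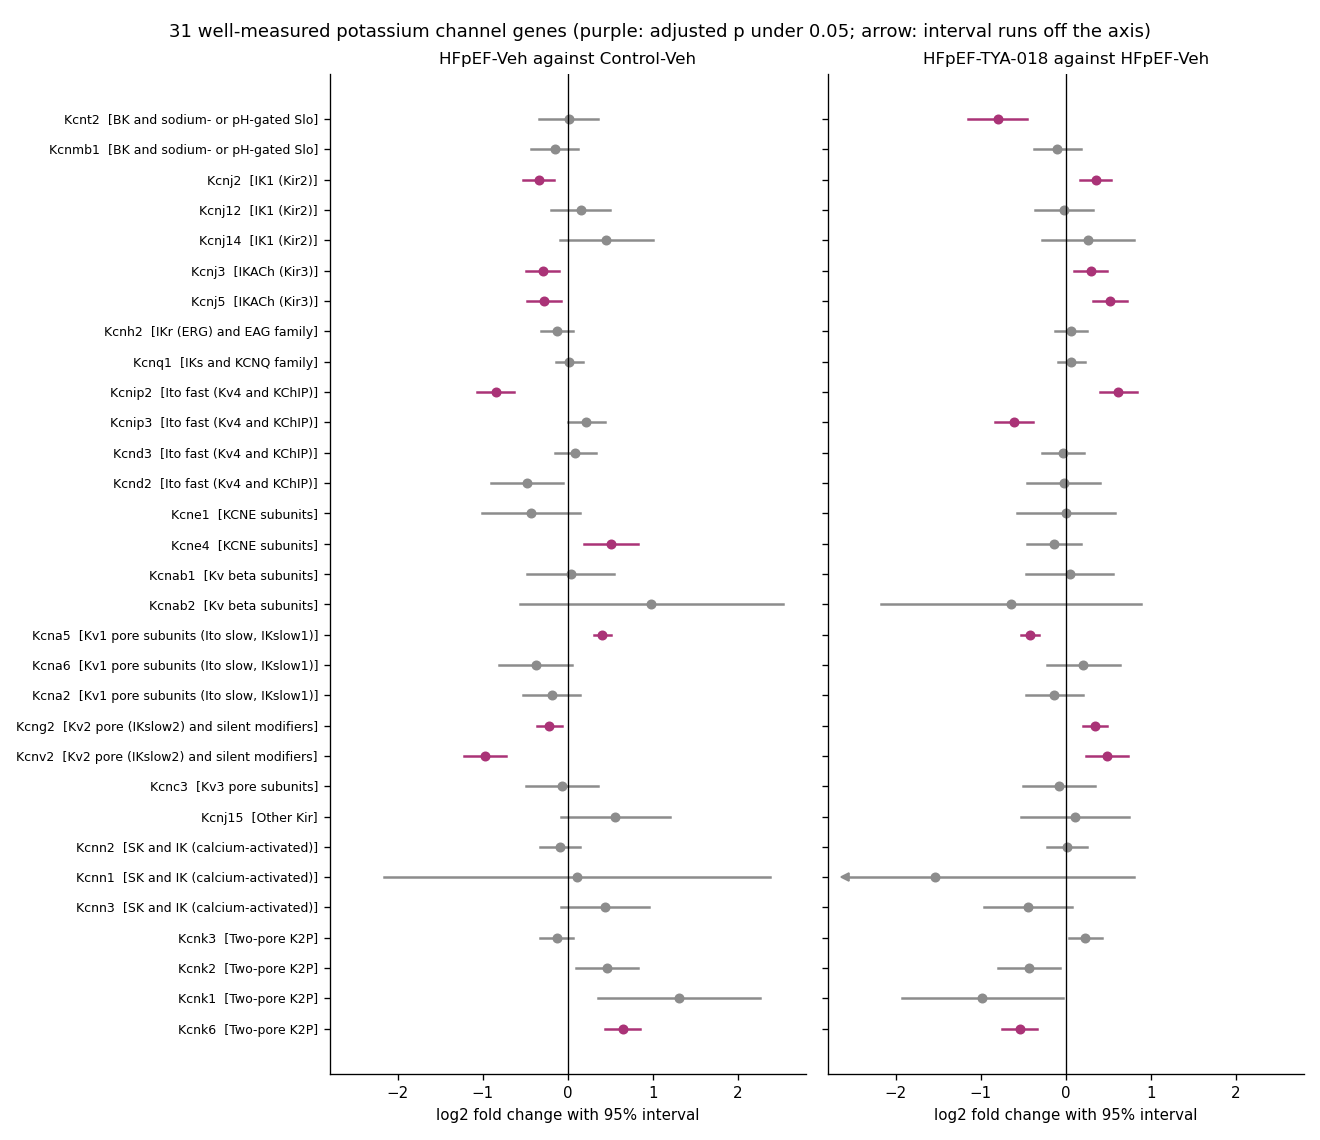
Log2 fold changes with 95% intervals for 31 of the 33 well-measured members, grouped by current, in HFpEF-Veh against Control-Veh (left) and HFpEF-TYA-018 against HFpEF-Veh (right). Purple marks an adjusted p under 0.05, grey the rest, and an arrow an interval that runs off the axis. Members called in both panels, which share the HFpEF-Veh libraries, lie on opposite sides of 0, Kcnt2 and Kcnip3 are called only on the right and Kcne4 only on the left, and Kcnn1 and Kcnab2 have wide intervals.

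In all, 22 of the 33 well-measured members were called in no comparison. Their log2 fold changes ran from -0.48 to 1.31 between HFpEF-Veh and Control-Veh and from -1.54 to 0.26 between HFpEF-TYA-018 and HFpEF-Veh, with Kcnk1, a two-pore gene, at the upper end of the first (adjusted p = 0.0521) and Kcnn1 at the lower end of the second (adjusted p = 0.346). The share of all genes at 1 CPM or above that were called in no comparison was not taken. The count of 22 therefore cannot be read as a trait of the family.

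Ratios between partner subunits in the same library do not depend on how libraries are scaled. Of 8 pairs, 5 had a value in every library, and an exact two-sided permutation test of 4 against 4 libraries, whose smallest possible p is 0.0286, was run on 15 differences. None had an adjusted p under 0.05, and 1 of the 15 had a raw p under 0.05. Even a ratio that fully separated 2 groups could not pass adjustment over 15 tests by itself. The lack of a pass therefore could not decide whether any ratio changed. The mean log2 ratio of Kcnip2 to Kcnd2 was 4.11 ± 0.42 over C1 to C4, 3.75 ± 0.26 over V1 to V4 and 4.39 ± 0.39 over T1 to T4 (SD, n = 4), with an exact p of 0.171 and 0.0571 in the first 2 comparisons (adjusted p = 0.286 and 0.245). For Kcnj2 to Kcnj12 the mean log2 ratio was 1.57 ± 0.25, 1.08 ± 0.33 and 1.44 ± 0.15, with an exact p of 0.0857 in both (adjusted p = 0.245). The ratio of Kcnd2 to Kcnd3 was lower in HFpEF-TYA-018 relative to Control-Veh by -0.58 on the log2 scale at the smallest exact p, 0.0286 (adjusted p = 0.245). Kcne1 to Kcnq1 and Kcnj3 to Kcnj5 had exact p values of 0.0857 or above, the latter pair with log2 means of 0.56 ± 0.22, 0.55 ± 0.15 and 0.33 ± 0.15 in the 3 groups.

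**Figure D4:**
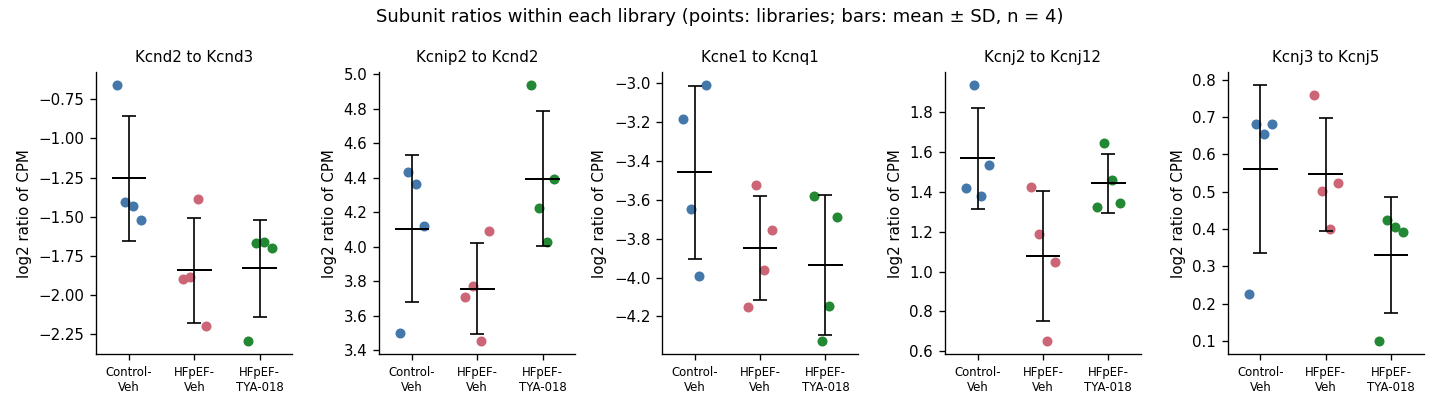
Log2 ratio of CPM between 5 pairs of partner subunits in each library (points), with mean ± SD (n = 4 per group). Groups overlap for most pairs, and single libraries such as C1 for Kcnd2 to Kcnd3 and T1 for Kcnj3 to Kcnj5 stand apart from the rest of their group.

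Of 17 partner genes outside the symbol rule (auxiliary subunits, trafficking proteins and regulators of channel genes), 13 were tested. Between HFpEF-Veh and Control-Veh 2 were called higher and 1 lower. Nedd4l, a ubiquitin ligase that removes channels from the membrane, averaged 8.30 ± 0.595 CPM over C1 to C4, 5.16 ± 1.27 over V1 to V4 and 6.28 ± 0.325 over T1 to T4 (SD, n = 4). Relative to Control-Veh it was lower in HFpEF-Veh by -0.69 ± 0.14 on the log2 scale (adjusted p = 0.00657). Lrrc52, an auxiliary subunit of Slo channels, rose by 1.03 ± 0.26 on the log2 scale (adjusted p = 0.0166), and Dpp6, a Kv4 partner, by 2.22 ± 0.70 (adjusted p = 0.0406) at levels of at most 0.334 CPM. In HFpEF-TYA-018 against HFpEF-Veh the 1 called gene was Abcc8, the sulfonylurea receptor SUR1, which was higher by 0.72 ± 0.19 (adjusted p = 0.0225). Irx3, Irx5 and Klf15, transcription factors known to control Kcnd2 or Kcnip2, were not called in any comparison.

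The direction of the smaller changes depended on what the libraries were scaled to. When libraries were scaled by the 8 cardiomyocyte markers, a choice made after seeing the data, the median log2 fold change of all genes moved to 0.34 in HFpEF-Veh against Control-Veh and to -0.20 in HFpEF-TYA-018 against HFpEF-Veh. The members then called were 12 higher and 2 lower in the first comparison, 1 higher and 6 lower in the second, and 2 higher (Kcng2 and Kcnk3) and 0 lower in HFpEF-TYA-018 against Control-Veh, where none of the 3 reported calls was kept. In log2(TPM + 1), which weights low genes little, they were 0 higher and 1 lower in the first and 7 higher and 0 lower in the second, with medians of all genes at -0.07 and 0.17, and 0 were called in the third. Of the 10 and 11 reported calls of the first 2 comparisons this kept 1 (Kcnv2) and 6. Under the cardiomyocyte scaling Kcng2, Kcnj2, Kcnj3 and Kcnj5 changed sign in the first comparison, to 0.15, 0.02, 0.07 and 0.06 on the log2 scale, all of them below the median of all genes under that scaling. Kcnip2 and Kcnv2 stayed below 0 in the first comparison under every scaling tried, and Kcna5, Kcnk6, Kcnc4 and Kcne4 stayed above 0.

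**Figure D5:**
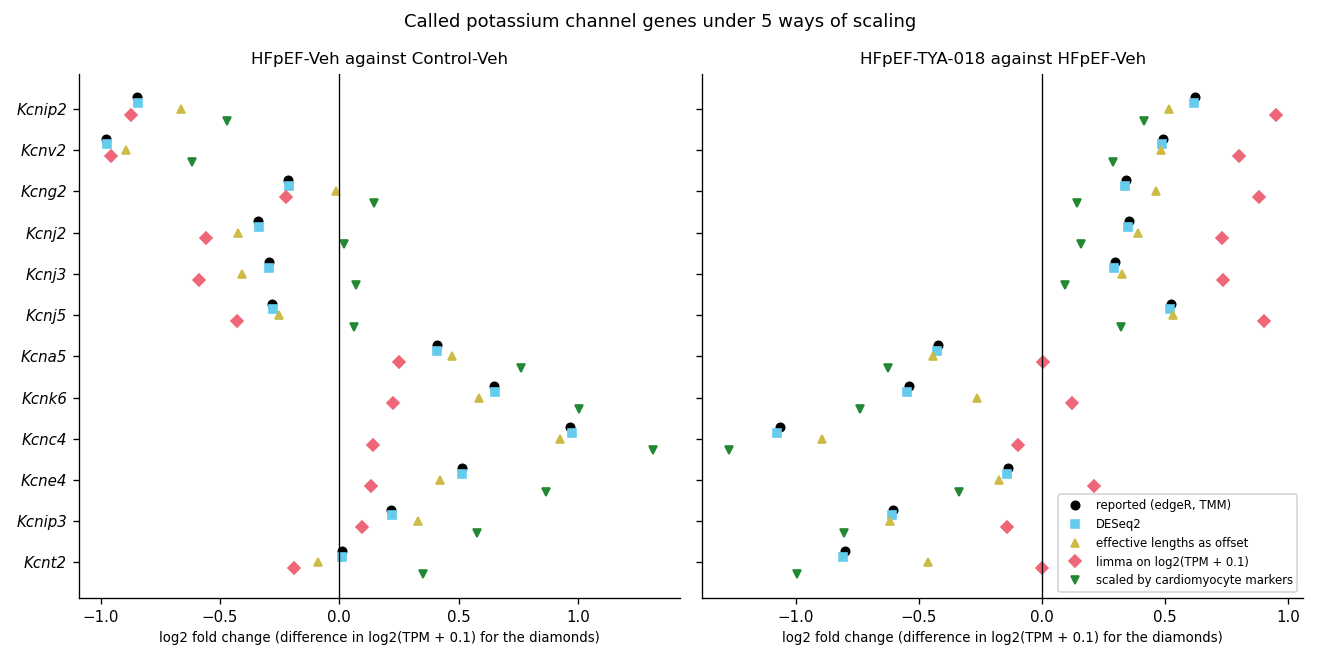
Log2 fold change of the 12 called members under 5 ways of scaling, in HFpEF-Veh against Control-Veh (left) and HFpEF-TYA-018 against HFpEF-Veh (right). Each symbol is 1 way of scaling. Kcnip2 and Kcnv2 lie left of 0 in the left panel under all 5, while Kcng2, Kcnj2, Kcnj3 and Kcnj5 cross 0 when scaled by cardiomyocyte markers.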

How the data were processed

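The authors trimmed reads with fastp, quantified them with Salmon 1.6.0 against mouse GENCODE transcripts of GRCm38 and summed them per gene with tximport. The labels' processing notes name hg38, but the rows are mouse genes. The read layout in the labels differs from that in the published methods. The authors deposited 3 tables of 29564 genes by 12 libraries, holding estimated counts, TPM and, as another kind of value, effective lengths. All value columns were used (0 were left out).

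Estimated counts were rounded and fitted with edgeR 4.0.16 (R 4.3.3), with filterByExpr, TMM scaling and 1 quasi-likelihood model over the 12 libraries (14333 genes holding 99.98% of counts, 9 residual degrees of freedom, common biological coefficient of variation 0.232). Two-sided F tests were adjusted by Benjamini-Hochberg over the 14333 genes, and a gene was called at an adjusted p under 0.05. CPM are after TMM, errors of fold changes are standard errors, intervals are 95%. Alternatives used DESeq2 1.42.0, limma 3.58.1 on TPM, other scalings and each library left out. The code was tested on simulated data. Gene positions are from the GENCODE M21 annotation of GRCm38, and shared sequence was counted in 31-base words.

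Values in every library were given for members called in any comparison and for the most abundant pore of each list with a tested member at 1 TPM or more, 17 genes here, in full or as ranges or means. Some genes are not reported here. Members follow from their symbols alone, but the family and its lists were chosen for description with earlier results of these data known. Nothing says that mice of a group were housed or processed independently, so p-values measure the spread between these libraries.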

Additional observations from a re-analysis of the deposited data

Results flagged for a closer look

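In 69 groups of 4 libraries, 7 values stood apart from the other 3 by more than Dixon's critical ratio at 95%, where chance alone flags about 1 in 20 groups. Among gene levels these were Kcnd3 in T4 (11.4 CPM, others 14.01 to 14.54 CPM), Kcnj2 in C1 (18.4 CPM, others 20.5 to 20.8 CPM) and Kcnj5 in T1 (32.6 CPM, others 25.3 to 26.0 CPM). Among log2 ratios they were Kcnd2 to Kcnd3 in C1 (-0.66, others -1.52 to -1.41) and in T1 (-2.30, others -1.70 to -1.66), and Kcnj3 to Kcnj5 in C1 (0.225, others 0.655 to 0.682) and in T1 (0.099, others 0.393 to 0.424). The level of Kcnj5 and its ratio with Kcnj3 in T1 share a gene, so these are not separate events. Without C1 the Kcnj2 call in HFpEF-Veh against Control-Veh held, and without T1 the Kcnj5 call in HFpEF-TYA-018 against HFpEF-Veh held.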

How the results depend on the processing

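No paired analysis was possible because the animal numbers in the labels are not shared between groups. With 1 library left out at a time, between 5 and 11 members were called in HFpEF-Veh against Control-Veh (reported 10), 9 to 11 in HFpEF-TYA-018 against HFpEF-Veh (reported 11) and 0 to 2 in HFpEF-TYA-018 against Control-Veh (reported 3). In the first, the count was 5 without C3 and 6 without C4, V2, V3 or V4. In the third, it was 0 without C4, T1 or T2 and 1 without T3 or T4. In the order of the 3 comparisons, effective lengths as an offset left 6, 6 and 0 calls, limma on log2(TPM + 1) left 1, 7 and 0, limma on log2(TPM + 0.1) left 1, 7 and 0, and log2(TPM + 1) rescaled without mitochondrial genes left 2, 3 and 0. Scaling by cardiomyocyte markers left 7 calls in the second and 2 in the third, with none of the 3 reported among the latter. DESeq2 (13, 11 and 3 calls), dropping the low-count filter, fitting only the 2 groups compared and removing mitochondrial genes kept each count within 1.5 times. Signs that turned were, under cardiomyocyte scaling in HFpEF-Veh against Control-Veh, Kcng2 (0.145), Kcnj2 (0.018), Kcnj3 (0.071), Kcnj5 (0.063) and Kcnk3 (0.243), and, in HFpEF-TYA-018 against HFpEF-Veh, Kcna5 (0.004 in log2(TPM + 1) and 0.002 in log2(TPM + 0.1)), Kcnk6 (0.033 and 0.123) and Kcnt2 (0.002 in log2(TPM + 1)). The median of all genes also moved under these scalings, and the cause was not tested. Kcnip2 was called in HFpEF-TYA-018 against HFpEF-Veh under every alternative run. Of the subunit ratios, 0 passed as reported or with TPM, where a single separated ratio could not have passed in either form. The 41 members not tested had means of at most 0.184 CPM, and the part of depth in this was not tested.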

Other observations

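Some well-measured members reached an unadjusted p under 0.05 without passing adjustment by edgeR's quasi-likelihood test. The pair named here, chosen after their values were seen, were called by DESeq2 in HFpEF-Veh against Control-Veh. Kcnk2, the stretch-sensitive TREK-1 pore, was at 1.94, 2.28, 3.01 and 3.44 CPM in C1 to C4, 3.35, 4.08, 3.89 and 3.33 CPM in V1 to V4, and 2.46, 2.87, 2.86 and 2.65 CPM in T1 to T4. Its log2 fold changes were 0.46 (adjusted p = 0.071) in HFpEF-Veh against Control-Veh and -0.44 (adjusted p = 0.0883) in HFpEF-TYA-018 against HFpEF-Veh, and the HFpEF-TYA-018 libraries were all below the HFpEF-Veh ones. Kcnk1, the TWIK-1 pore, was at 1.28, 0.436, 0.741 and 1.47 CPM in C1 to C4, 1.19, 3.49, 1.82 and 3.25 CPM in V1 to V4, and 1.76, 0.909, 0.735 and 1.52 CPM in T1 to T4, with V1 within the Control-Veh range and a log2 fold change of 1.31 between HFpEF-Veh and Control-Veh (adjusted p = 0.0521).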
